A study of Mus musculus with 18 samples.

Results

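The genes described here encode the enzymes and core subunits that add methyl groups to histone lysines (writers) or remove them (erasers) in 2-cell mouse embryos. They were taken by symbol from 18 expression files (the Kdm1 to Kdm8, Kmt2 to Kmt5, Setd, Suv39h, Ehmt and Ezh families, Eed, Suz12, Nsd1 to Nsd3, Dot1l, Phf2 and Phf8, with Kdm5d left out), which gave 51 genes of 55335. Of these, 49 are protein-coding. Kdm4dl is an unprocessed pseudogene related to Kdm4d, with which it may share reads, and Kdm6bos is an antisense RNA of Kdm6b. By the residue they are best known for, there were 7 writers and 5 erasers of H3K4, 6 writers and 9 erasers of H3K9, 4 writers and 2 erasers of H3K27, 4 writers and 3 erasers of H3K36, 1 writer of H3K79 and 3 writers of H4K20. Another 5 genes (Setd3, Setd4, Setd5, Setd6 and Kmt2e) have no settled histone lysine target. The members were chosen by name and not by their values, though with earlier results of these data known.

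Histone lysine methylation is written from S-adenosylmethionine by SET-domain enzymes, and by Dot1l, which has no SET domain. It is removed either by the flavin-dependent Kdm1 enzymes or by Jumonji-domain dioxygenases, which need iron and 2-oxoglutarate. H3K4 trimethylation marks promoters, H3K36 methylation the bodies of transcribed genes, H3K27 trimethylation Polycomb-silenced genes, and H3K9 trimethylation heterochromatin and silenced repeats. In the mouse the oocyte hands the zygote broad H3K4 trimethylation domains and a store of RNA, and both are replaced around the 2-cell stage, when the embryo begins bulk transcription of its own genome. Kdm5a and Kdm5b are known to clear the broad H3K4 domains at that stage.

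Gene expression was measured in a series on histone crotonylation, a lysine acylation whose donor is crotonyl-CoA. For each library, 5 to 10 embryos were lysed in 1 tube and their poly(A) RNA was amplified by Smart-seq2. The values are FPKM (mapped fragments scaled by transcript length and by library depth). In the siRNA experiment, embryos had received an siRNA against Echs1 (siEchs1) or a control siRNA (siCon) and were collected at stages labelled L2C and E2C, with 3 libraries in each of 4 groups: siEchs1 L2C, siCon L2C, siEchs1 E2C and siCon E2C. Echs1 is the mitochondrial enoyl-CoA hydratase that hydrates crotonyl-CoA. In the treatment experiment, wild-type zygotes were exposed to sodium crotonate, to sodium acetate or to DMSO, and RNA was taken at the early 2-cell stage (E2C). That gave 3 groups of 2 libraries. For the siRNA embryos the labels give no strain or genotype, and throughout they give no doses, no exact hours and no spelled-out name for L2C. They do not say whether replicates came from separate matings or days, so p-values measure the spread between these tubes, which may be technical. In RNA pooled from whole embryos, fewer embryos or blastomeres that contain a transcript and less of it in each cannot be told apart.

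FPKM totals lay between 708113 and 1123993 per library, and the number of reads behind them could not be recovered. The targeted gene Echs1 had 0.89, 4.32 and 4.25 FPKM in siEchs1 L2C, against 38.6, 39.2 and 24.4 FPKM in siCon L2C, and 0.71, 5.88 and 3.82 FPKM in siEchs1 E2C, against 30.5, 27.5 and 32.5 FPKM in siCon E2C (values in the order of replicates 1 to 3, here and below). The groups did not overlap at either stage. Genes known from the 2-cell embryo summed to 325 to 504 FPKM in siEchs1 L2C, against 1441 to 2290.4 FPKM in siCon L2C, and to 822 to 1076 FPKM in siEchs1 E2C, against 2191 to 2348 FPKM in siCon E2C. A list of 12 oocyte transcripts summed to 15891 to 20681 FPKM in siEchs1 L2C, against 1425 to 1999 FPKM in siCon L2C, and to 5162 to 18576 FPKM in siEchs1 E2C, against 8089 to 9192 FPKM in siCon E2C, where the groups overlapped. The part of these sums in the siRNA results below was not tested. Mitochondrial transcripts took 10.3% of FPKM in siEchs1 E2C replicate 3 and 0.831 to 2.82% in the other siEchs1 libraries. In siCon libraries they took 7.58 to 17%. Markers of other cells stayed far below these sums, at 2.46 to 10.2 FPKM for cumulus and granulosa cells, 5.29 to 33.9 FPKM in siEchs1 and 25.8 to 188 FPKM in siCon for oviduct (mainly Epcam), and 2.74 to 18.7 FPKM in siEchs1 and 59.7 to 125 FPKM in siCon for blood (mainly Hba-a1 and Hba-a2). Sperm and testis genes summed to 8.54 to 20.8 FPKM in siEchs1 L2C, 5.66 to 12.1 FPKM in siCon L2C, 28.4 to 44.1 FPKM in siEchs1 E2C and 36 to 78.5 FPKM in siCon E2C, and the part of these lists was not tested. Replicate 3 of siEchs1 E2C stood apart, with a Spearman correlation over genes of 0.668 and 0.718 with the other two, which correlated at 0.900 with each other. In the treatment experiment the acetate libraries correlated at 0.848, against 0.889 for crotonate and 0.918 for DMSO. There mitochondrial transcripts took 19.8 and 16.7% in crotonate libraries, 20.6 and 11.9% in acetate libraries and 13.4 and 12.2% in DMSO libraries, and the part of this in the results was not tested. Calls that change without siEchs1 E2C replicate 3, and values without an acetate library, are given below.

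Levels per transcript length differed widely among the members. Setd4, Ezh2 and Eed had the 3 highest means in siEchs1 L2C, siEchs1 E2C and siCon E2C, while in siCon L2C Eed, Ezh2 and Kmt5a did. Setd4 averaged 1091 ± 127 FPKM in siEchs1 L2C, 58.4 ± 5.71 in siCon L2C, 945 ± 775 in siEchs1 E2C and 303 ± 62.9 in siCon E2C (SD, n = 3 each). In the treatment libraries Kdm5a was first in crotonate and DMSO, at 657 ± 81.4 and 513 ± 83.2 FPKM (SD, n = 2 each). At the other end, Kmt2a (0.01 to 1.48 FPKM), Setd7 (0 to 0.84 FPKM) and Kdm6bos (0 to 3.42 FPKM) were below the filter on low values. In 1 other setting Setd7 was called lower in siEchs1 at L2C (adjusted p = 0.0171 with no filter on low values) and higher at L2C than E2C in siCon (adjusted p = 0.0243 with no filter on low values). The remaining 48 members entered the siRNA tests. In the treatment tests 44 did, since Ehmt2, Kdm4d, Kdm8 and Suv39h1 were below the minimum there as well.

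**Figure D1:**
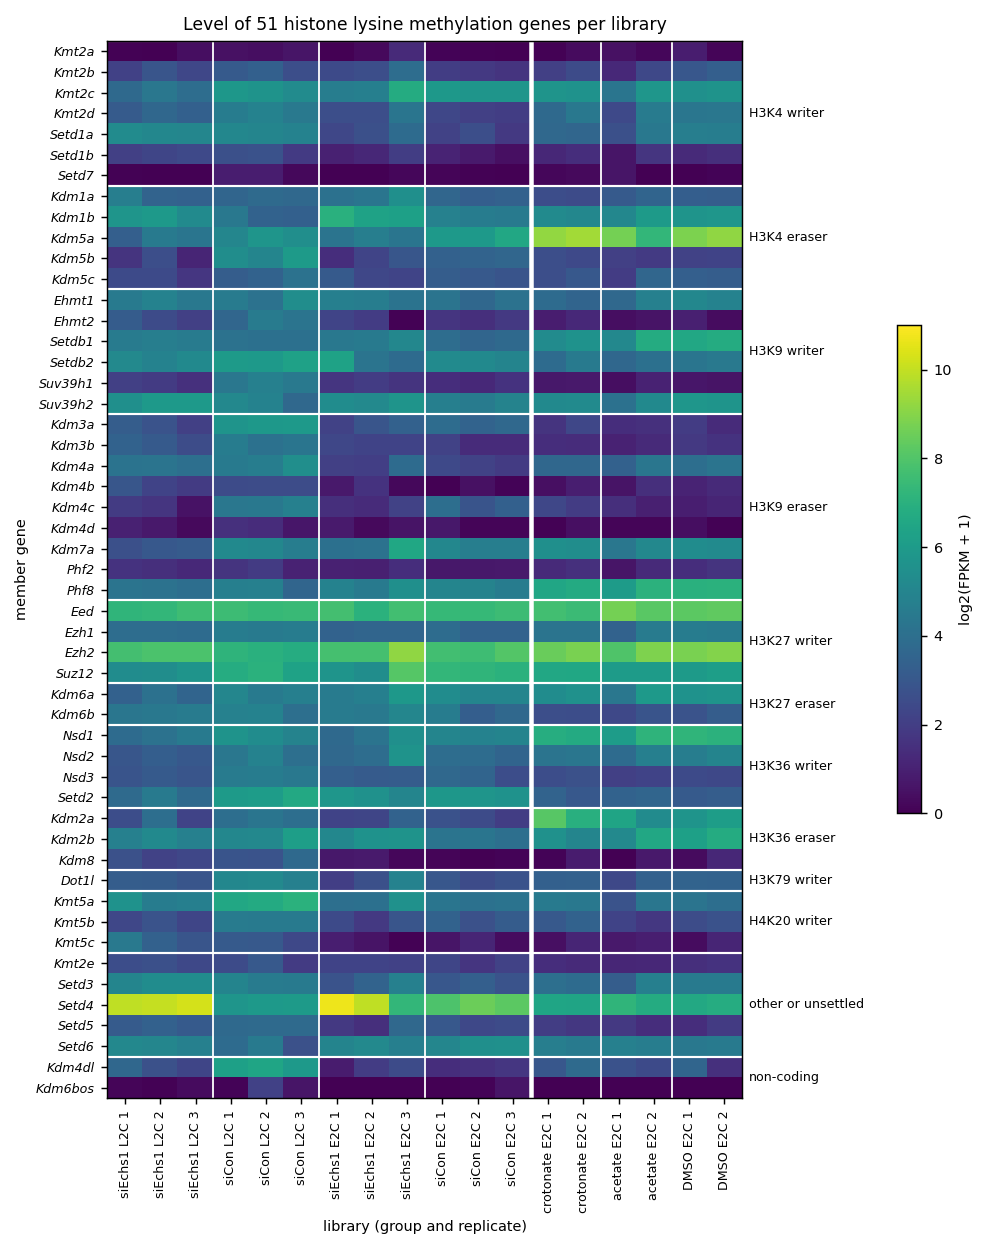
Level of each of the 51 members (rows, grouped by target residue and role) in each of the 18 libraries (columns), as log2(FPKM + 1), with the siRNA experiment left of the thick line and the treatment experiment right of it. Setd4 is brightest in the 3 siEchs1 L2C libraries and in siEchs1 E2C replicates 1 and 2. The row of Kdm5a is brighter in every treatment library than in any siRNA library.

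The promoters of 4 genes that carried the knockdown results at L2C are shown, 2 that were lower and 2 that were higher in siEchs1. Each sequence runs from 250 bases before to 50 bases after the RefSeq transcript start on GRCm38.p6, 5′ to 3′ on the gene's strand, and capitals mark CCAAT box letters (CCAAT), GC box letters (the run GGGCGG) and the core that bicoid-type homeodomain factors bind (the run GGATTA), each on either strand. Where a gene has several listed starts, 1 is shown.
Suv39h1, chrX:8074711-8075010, minus strand: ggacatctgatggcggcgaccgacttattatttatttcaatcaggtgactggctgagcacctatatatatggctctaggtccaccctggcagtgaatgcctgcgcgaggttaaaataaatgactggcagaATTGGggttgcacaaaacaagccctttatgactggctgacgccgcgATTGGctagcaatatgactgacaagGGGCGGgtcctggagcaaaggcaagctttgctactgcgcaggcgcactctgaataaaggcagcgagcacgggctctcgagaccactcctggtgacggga
Kdm3a, chr6:71632868-71633167, minus strand: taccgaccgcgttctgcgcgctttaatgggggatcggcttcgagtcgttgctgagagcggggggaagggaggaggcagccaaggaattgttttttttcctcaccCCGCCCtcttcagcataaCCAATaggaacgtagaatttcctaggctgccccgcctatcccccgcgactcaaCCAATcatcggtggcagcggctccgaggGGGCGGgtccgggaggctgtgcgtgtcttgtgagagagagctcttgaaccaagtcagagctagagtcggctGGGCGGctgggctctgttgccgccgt
Setd4, chr16:93603766-93604065, minus strand: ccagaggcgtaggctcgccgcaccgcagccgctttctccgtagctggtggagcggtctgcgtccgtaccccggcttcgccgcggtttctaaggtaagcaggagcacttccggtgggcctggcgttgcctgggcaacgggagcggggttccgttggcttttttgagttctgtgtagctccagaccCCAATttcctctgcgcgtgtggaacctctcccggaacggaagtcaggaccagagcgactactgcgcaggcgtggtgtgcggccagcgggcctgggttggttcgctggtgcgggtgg
Kdm1b, chr13:47043249-47043548, plus strand: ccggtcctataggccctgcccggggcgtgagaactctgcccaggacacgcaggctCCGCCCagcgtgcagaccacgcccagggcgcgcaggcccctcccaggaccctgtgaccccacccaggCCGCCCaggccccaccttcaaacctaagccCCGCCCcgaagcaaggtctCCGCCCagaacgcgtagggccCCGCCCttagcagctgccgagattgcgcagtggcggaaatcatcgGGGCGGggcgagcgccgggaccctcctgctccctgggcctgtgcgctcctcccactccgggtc
Suv39h1 and Kdm3a each had 2 CCAAT matches, with 1 and 3 GC boxes. Setd4 had 1 CCAAT match and no GC box, and Kdm1b had 6 GC boxes and no CCAAT. None of the 4 windows held GGATTA. RefSeq promoters were found for 38 of the 51 members, with 50 starts. GGGCGG was in 70.0% of them, against 35.7% of all 32851 promoter windows of that length. CCAAT was in 44.0% against 37.4%, and GGATTA in 6.0% against 7.06%. The median GC content was 64.0% in the members' windows and 52.7% in all windows. These matches are a description of the letters and not of binding.

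At L2C, knockdown of Echs1 went with lower RNA of many writers and erasers. Of the 48 members tested, 4 were higher (Setd4, Kdm1b, Suv39h2 and Setd6) and 21 were lower in siEchs1 than in siCon, in a limma fit on log2(FPKM + 1). A gene is called at an adjusted p under 0.05, adjusted over all genes tested, and every log2 fold change is on that log2(FPKM + 1) scale. The background was high: 21.9% of all 17652 genes tested were called higher and 26.9% lower. A larger share of the members than of all genes was called lower and a smaller share higher, which is a description with no test. The members' median log2 fold change was -0.72, against -0.078 over all genes. Libraries of the groups did not overlap for 34 of the 48, while they did not for 63.1% of all genes. Among writers 12 of 23 were lower and 1 higher, and among erasers 8 of 19 were lower and 1 higher. The 4 H3K36 writers were all lower, as were 3 of 5 H3K4 erasers, 2 of 3 H4K20 writers, 4 of 9 H3K9 erasers and Dot1l, while 1 of 4 H3K27 writers was.

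At E2C the same knockdown gave few calls. Kdm1b, Kdm2b and Setdb1 were higher and Kdm5a and Kdm4c lower, which is 5 of 48 members where 20.3% of all genes were called (11% higher and 9.31% lower). The members' median was 0.22 and that of all genes 0.15. Groups did not overlap for 15 members, against 34.5% of all genes. For fits that leave out a library, here and below, the share of all genes called is not given. Changes in member counts under such fits are therefore not read as a result about the members. Without siEchs1 E2C replicate 3, 4 members were higher and 9 lower. Setd4 joined those that were higher (log2 fold change 2.11, adjusted p = 0.000113). Those that joined the lower ones were Suz12 (log2 fold change -1.63, adjusted p = 0.000492), Kmt2c (adjusted p = 0.00801), Kdm5b (adjusted p = 0.00979), Kdm3a (adjusted p = 0.0214), Setd5 (adjusted p = 0.022), Nsd1 (adjusted p = 0.0248) and Kmt5b (adjusted p = 0.0358). At L2C the same omission added Ezh2 to those that were higher and Suz12, Kdm2a (adjusted p = 0.0237) and Kdm4a (adjusted p = 0.0457) to those that were lower. Counts of calls ranged from 2 to 13 as single E2C libraries were left out, with the lowest without siCon replicate 1 or siEchs1 replicate 2, 3 without siCon replicate 2 or 3, and 8 without siEchs1 replicate 1. With the compared libraries fitted alone, 2 member calls were left. Over all genes that fit called 532 higher and 821 lower, against 1934 and 1644 with all libraries. With quantile normalization 1 member was higher and 3 were lower. Rescaling without mitochondrial and ribosomal RNA gave 5 higher and 2 lower, with the median of all genes at 0.31. The effect at L2C differed from that at E2C for 11 members, 1 with a higher and 10 with a lower value at L2C, where 17.2% of all genes differed (5.65% with a higher and 11.6% with a lower value at L2C). Without replicate 3 of siEchs1 E2C 16 differed, with Ehmt2, Kdm7a, Kdm8, Nsd2 and Dot1l added, all with a lower value at L2C. Without siEchs1 L2C replicate 3 the count was 3, without siCon E2C replicate 2 or 3 it was 4, and without siCon E2C replicate 1, siCon L2C replicate 3 or siEchs1 L2C replicate 1 it was 7. Quantile normalization gave 2 with a higher and 8 with a lower value at L2C.

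Between the stages, siCon embryos had more RNA of many of these genes at L2C. In siCon, 25 members were higher at L2C than at E2C and 3 were lower (Setd4, Setd6 and Kdm1b), where 50.2% of all genes were called, 35.8% higher and 14.4% lower. The median was 0.95 over the members and 0.51 over all genes. Groups did not overlap for 36 members, against 63.8% of all genes. In siEchs1 6 members were higher at L2C (Kmt5c, Setd1a, Kdm8, Kdm4b, Setd3 and Kdm4a) and 3 were lower (Setd2, Kdm6a and Kdm7a), where 11.8% of all genes were higher and 2.73% lower. Here the members' median was 0.049, that of all genes 0.23, and 18 members did not overlap, against 31% of all genes. These 9 siEchs1 calls became 3 without siEchs1 L2C replicate 1, 5 without replicate 2 or 3, and 2 with the compared libraries alone. Over all genes the fit of the compared libraries alone called 516 higher and 50 lower, against 2090 and 482 with all libraries. Without siEchs1 E2C replicate 3 there were 13 member calls, with Setd5, Setd1b, Kmt5a and Kdm4dl added to those higher at L2C. With quantile normalization, under which the median of all genes in siCon was -0.013, 3 members were higher and 6 lower at L2C in siEchs1, and 15 higher and 5 lower in siCon. Rescaling without mitochondrial and ribosomal RNA gave a median of all genes of 0.76 in siCon and 0.30 in siEchs1, where 5 members were then higher and 1 was lower at L2C. The knockdown and stage comparisons share libraries, so their values are set side by side and not correlated.

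**Figure D2:**
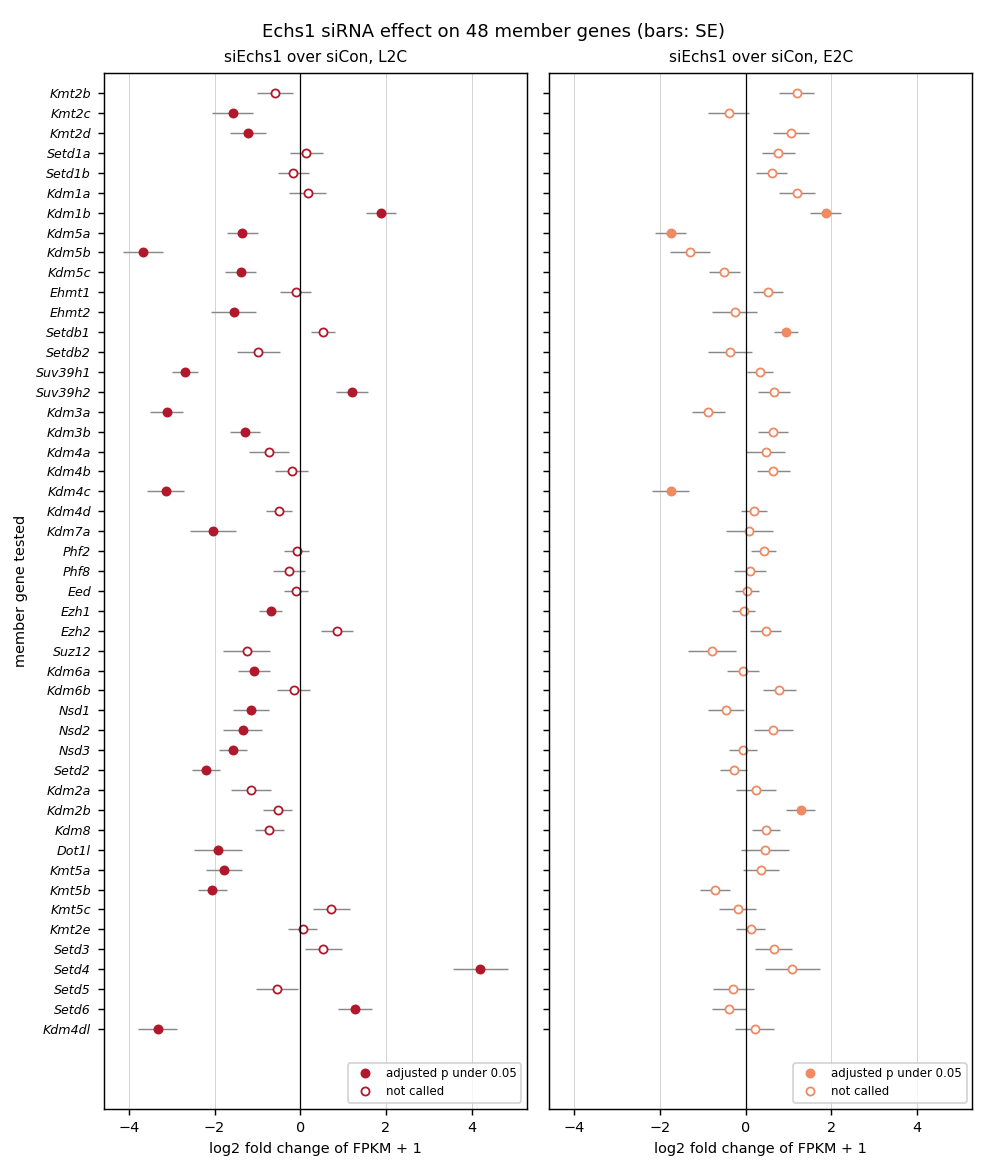
Log2 fold change of FPKM + 1, siEchs1 over siCon, for the 48 members tested, at L2C (left) and E2C (right), as points with bars of 1 standard error; filled points have an adjusted p under 0.05. At L2C 21 members lie left of zero and 4 right of it with filled points, and at E2C 2 and 3 do.

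Among the H3K4 erasers, Kdm1b and the Kdm5 genes moved in opposite directions. Kdm1b encodes a flavin-dependent H3K4 demethylase that the mouse oocyte needs to set maternal imprints. It had 52.3, 58.4 and 37.1 FPKM in siEchs1 L2C, against 20.3, 10.01 and 9.27 FPKM in siCon L2C. At E2C, Kdm1b had 126, 80.1 and 74.3 FPKM in siEchs1, against 27.7, 23.7 and 21.5 FPKM in siCon. Every siEchs1 library lay above every siCon library of its stage, and the gene was higher at L2C (log2 fold change 1.88 with SE 0.36, adjusted p = 0.00106) and at E2C (log2 fold change 1.87 with SE 0.36, adjusted p = 0.00409). In siCon it was lower at L2C than at E2C (log2 fold change -0.91 with SE 0.36, adjusted p = 0.0492). That last call ended under several settings (adjusted p = 0.0566 to 0.15 without any siCon E2C library, siCon L2C replicate 2 or 3, siEchs1 E2C replicate 2 or any siEchs1 L2C library, 0.0855 with no filter on low values and 0.202 after rescaling without mitochondrial and ribosomal RNA). Kdm1b overlaps exons of Dek on the other strand, and the files keep no strand.

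Kdm5b, an H3K4 trimethylation eraser, had 2.14, 5.24 and 1.17 FPKM in siEchs1 L2C, against 41.6, 31.6 and 62.8 FPKM in siCon L2C. At E2C it had 1.68, 3.81 and 6.66 FPKM in siEchs1 and 9.57, 10.4 and 11.4 FPKM in siCon. The groups did not overlap at either stage, and the gene was lower in siEchs1 at L2C (log2 fold change -3.67 with SE 0.46, adjusted p = 0.000113), while the test missed the threshold at E2C with all libraries (log2 fold change -1.31 with SE 0.46, adjusted p = 0.0643) and called the gene lower there in 2 other fits (adjusted p = 0.00979 without siEchs1 E2C replicate 3 and 0.0331 with quantile normalization). In siCon it was higher at L2C than at E2C (log2 fold change 1.96 with SE 0.46, adjusted p = 0.00377), and in siEchs1 the stages overlapped (log2 fold change -0.41 with SE 0.46, adjusted p = 0.629). Its paralog Kdm5a had 9.19, 21.9 and 18.6 FPKM in siEchs1 L2C, against 32.2, 51.8 and 42.3 FPKM in siCon L2C. At E2C, Kdm5a had 17.8, 24.9 and 18.6 FPKM in siEchs1, against 60.7, 59.3 and 96.2 FPKM in siCon. It was lower at both stages (log2 fold change -1.35 with SE 0.37, adjusted p = 0.00906 at L2C; log2 fold change -1.75 with SE 0.37, adjusted p = 0.00671 at E2C), with no overlap. Ccdc77, whose exons overlap those of Kdm5a on the other strand, was also lower at L2C (log2 fold change -1.64 with SE 0.38, adjusted p = 0.00359).

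Kdm5c, the X-linked paralog, averaged 3.8 ± 1.3 FPKM in siEchs1 L2C and 11.7 ± 4.28 FPKM in siCon L2C (SD, n = 3 each; log2 fold change -1.39 with SE 0.37, adjusted p = 0.00806). At E2C it averaged 5.14 ± 2.18 FPKM in siEchs1 and 7.37 ± 1.07 FPKM in siCon, which overlapped. Kdm1a, the other flavin-dependent eraser, which mouse embryos need from the oocyte to pass the 2-cell stage, had 24.8, 10.3 and 9.72 FPKM in siEchs1 L2C, against 11, 13.1 and 12 FPKM in siCon L2C. At E2C, Kdm1a had 16.1, 18.5 and 44.2 FPKM in siEchs1, against 11.3, 8.76 and 9.54 FPKM in siCon. Its libraries overlapped at L2C and did not at E2C, where the highest value came from the library that stood apart, and no siRNA or stage test of it passed with all libraries (log2 fold change 1.19 with SE 0.42, adjusted p = 0.0645 at E2C), while in 3 other fits it was called higher at E2C (adjusted p = 0.0439 to 0.0465 without siEchs1 E2C replicate 1 or siEchs1 L2C replicate 1 and 0.0454 after rescaling without mitochondrial and ribosomal RNA).

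The H3K4 writers Kmt2d and Kmt2c place monomethylation at enhancers, whereas Setd1a and Setd1b make trimethylation at promoters. Kmt2d had 8.02, 11.7 and 9.45 FPKM in siEchs1 L2C, against 23.2, 28.3 and 20.6 FPKM in siCon L2C. At E2C, Kmt2d had 5.21, 5.21 and 18.4 FPKM in siEchs1, against 4.02, 3.18 and 2.97 FPKM in siCon. All siEchs1 libraries were lower than siCon at L2C and all were higher at E2C. Kmt2d was lower in siEchs1 at L2C (log2 fold change -1.23 with SE 0.42, adjusted p = 0.0277), was not called at E2C (log2 fold change 1.06 with SE 0.42, adjusted p = 0.0917) and was higher at L2C than at E2C in siCon (log2 fold change 2.51 with SE 0.42, adjusted p = 0.000362). Kmt2c was lower at L2C as well, at 15.5 ± 3.7 FPKM in siEchs1 and 48.1 ± 8.54 FPKM in siCon (SD, n = 3 each; log2 fold change -1.58 with SE 0.47, adjusted p = 0.0154). The Kmt2d call in siEchs1 at L2C ended under several settings (adjusted p = 0.059 to 0.0859 without siCon L2C replicate 1 or 2 or siEchs1 L2C replicate 1 or 3, 0.0565 with no filter on low values and 0.0505 after rescaling without mitochondrial and ribosomal RNA), and so did that of Kmt2c (adjusted p = 0.0515 to 0.0536 without siCon L2C replicate 1 or siEchs1 L2C replicate 1).

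Setd1a had 38.4, 32.6 and 31.6 FPKM in siEchs1 L2C, against 32.7, 31.2 and 28.5 FPKM in siCon L2C. At E2C, Setd1a had 4.08, 5.46 and 13.5 FPKM in siEchs1, against 3.52, 5.16 and 2.52 FPKM in siCon. Its level was higher at L2C in both arms, without overlap: log2 fold change 2.17 with SE 0.38, adjusted p = 0.0034 in siEchs1, and log2 fold change 2.78 with SE 0.38, adjusted p = 0.000102 in siCon. The siEchs1 call ended with the compared libraries alone (adjusted p = 0.0548). The knockdown difference at L2C was 0.14 ± 0.38 on the log2 scale (95% interval -0.69 to 0.98, adjusted p = 0.779). Setd1a exons overlap those of Gm49388 on the same strand, so reads may be split between them. Setd1b was called in siCon between stages (4.62 ± 1.69 FPKM in L2C, 0.75 ± 0.38 FPKM in E2C, SD, n = 3 each; log2 fold change 1.65 with SE 0.36, adjusted p = 0.00236).

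Kmt2b, the main H3K4 trimethylation writer of the mouse oocyte, had 3.36, 6.52 and 4 FPKM in siEchs1 L2C, against 7.62, 9.48 and 5.19 FPKM in siCon L2C. At E2C, Kmt2b had 4.61, 5.33 and 14.1 FPKM in siEchs1, against 3.05, 2.55 and 2.15 FPKM in siCon. The siEchs1 and siCon values overlapped at L2C and not at E2C, and neither difference passed (log2 fold change -0.59 with SE 0.41, adjusted p = 0.251, and log2 fold change 1.19 with SE 0.41, adjusted p = 0.0582), although that at E2C was called higher in 2 other fits (adjusted p = 0.0387 without siEchs1 E2C replicate 1 and 0.0495 after rescaling without mitochondrial and ribosomal RNA). Between stages it was higher in siCon L2C (log2 fold change 1.21 with SE 0.41, adjusted p = 0.0267), a call that ended under other settings (adjusted p = 0.0642 to 0.0946 without siCon E2C replicate 2 or 3 or siCon L2C replicate 1 or 2, 0.0518 with no filter on low values and 0.287 with quantile normalization).

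The H3K9 trimethylation writers Suv39h1 and Suv39h2, which act on pericentric heterochromatin, went opposite ways. Suv39h1 had 3.22, 2.77 and 1.91 FPKM in siEchs1 L2C, against 19.4, 26.9 and 20.9 FPKM in siCon L2C. At E2C, Suv39h1 had 2.23, 2.9 and 2.14 FPKM in siEchs1, against 1.72, 1.39 and 2.06 FPKM in siCon. The siCon L2C libraries were high and the 3 other groups low. It was lower in siEchs1 at L2C (log2 fold change -2.69 with SE 0.30, adjusted p = 6.82e-05), was not called at E2C (log2 fold change 0.33 with SE 0.30, adjusted p = 0.466), and was higher at L2C than E2C in siCon (log2 fold change 3.10 with SE 0.30, adjusted p = 1.04e-05) but not in siEchs1 (log2 fold change 0.076 with SE 0.30, adjusted p = 0.907). The knockdown and siCon stage calls held under every setting tried. The gene (chrX:8061171-8074760, minus strand, GRCm38, GENCODE M21) overlaps exons of the antisense gene Gm14820, which averaged 321 ± 11.3 FPKM in siEchs1 L2C and 87.8 ± 5.91 FPKM in siCon L2C (SD, n = 3 each) and was higher in siEchs1 (log2 fold change 1.86 with SE 0.34, adjusted p = 0.000922).

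Suv39h2 had 43.5, 61 and 60.2 FPKM in siEchs1 L2C, against 33.7, 28.7 and 12.2 FPKM in siCon L2C, without overlap (log2 fold change 1.21 with SE 0.37, adjusted p = 0.0168). At E2C it had 40.03, 34.8 and 50.6 FPKM in siEchs1 and 26.2, 22.6 and 29 FPKM in siCon, also without overlap (log2 fold change 0.66 with SE 0.37, adjusted p = 0.228). The L2C call ended without some libraries (adjusted p = 0.0579 to 0.0595 without siCon L2C replicate 3 or siEchs1 L2C replicate 2 or 3). Setdb1 writes H3K9 trimethylation on endogenous retroviruses with Trim28. It had 22.6, 24.9 and 23 FPKM in siEchs1 L2C, against 16.6, 15.5 and 15.9 FPKM in siCon L2C. At E2C, Setdb1 had 20.3, 21.9 and 33 FPKM in siEchs1, against 14.1, 10.8 and 12.4 FPKM in siCon. All siEchs1 libraries were above siCon at both stages, and the difference passed at E2C (log2 fold change 0.93 with SE 0.28, adjusted p = 0.0341) and not at L2C (log2 fold change 0.53 with SE 0.28, adjusted p = 0.137). The E2C call ended in many settings (adjusted p = 0.0524 to 0.119 without any siCon E2C library, siEchs1 E2C replicate 2 or siEchs1 L2C replicate 2 or 3, 0.0594 with no filter on low values, 0.129 with the compared libraries alone, 0.139 with quantile normalization and 0.0606 with the replicate number as a block), and Cers2, whose exons overlap those of Setdb1 on the other strand, was also higher at E2C (log2 fold change 1.88 with SE 0.51, adjusted p = 0.0222).

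Ehmt2, which with Ehmt1 makes H3K9 dimethylation, had 8.14, 4.79 and 3.2 FPKM in siEchs1 L2C, against 11.4, 22.8 and 17.9 FPKM in siCon L2C. At E2C, Ehmt2 had 3.71, 2.83 and 0.04 FPKM in siEchs1, against 2.2, 1.78 and 2.54 FPKM in siCon. Ehmt2 was lower in siEchs1 at L2C without overlap (log2 fold change -1.55 with SE 0.53, adjusted p = 0.0275) and higher in siCon L2C than siCon E2C (log2 fold change 2.49 with SE 0.53, adjusted p = 0.00185). The knockdown call ended under other settings (adjusted p = 0.0689 to 0.104 without siCon L2C replicate 2 or 3 or siEchs1 L2C replicate 2 or 3, 0.172 with a pseudocount of 0.1 and 0.0605 with no filter on low values). Ehmt1 (23.5 ± 4.11 FPKM in siEchs1 L2C and 26.8 ± 12.4 FPKM in siCon L2C) and Setdb2 (33.4 ± 4.15 FPKM in siEchs1 L2C and 67 ± 9.77 FPKM in siCon L2C, SD, n = 3 each) passed no siRNA or stage test with all libraries. Setdb2 was lower in siEchs1 in other fits at L2C (adjusted p = 0.0103 without siEchs1 E2C replicate 1 and 0.0103 with the compared libraries alone) and at E2C (adjusted p = 0.0252 without siEchs1 E2C replicate 1). Between stages it was higher at L2C in siCon (adjusted p = 0.0133 without siEchs1 E2C replicate 1, 0.00934 with the compared libraries alone and 0.0329 after rescaling without mitochondrial and ribosomal RNA) and in siEchs1 (adjusted p = 0.0409 without siEchs1 E2C replicate 1) in some fits, as was Ehmt1 in siCon (adjusted p = 0.0242 after rescaling without mitochondrial and ribosomal RNA).

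**Figure D3:**
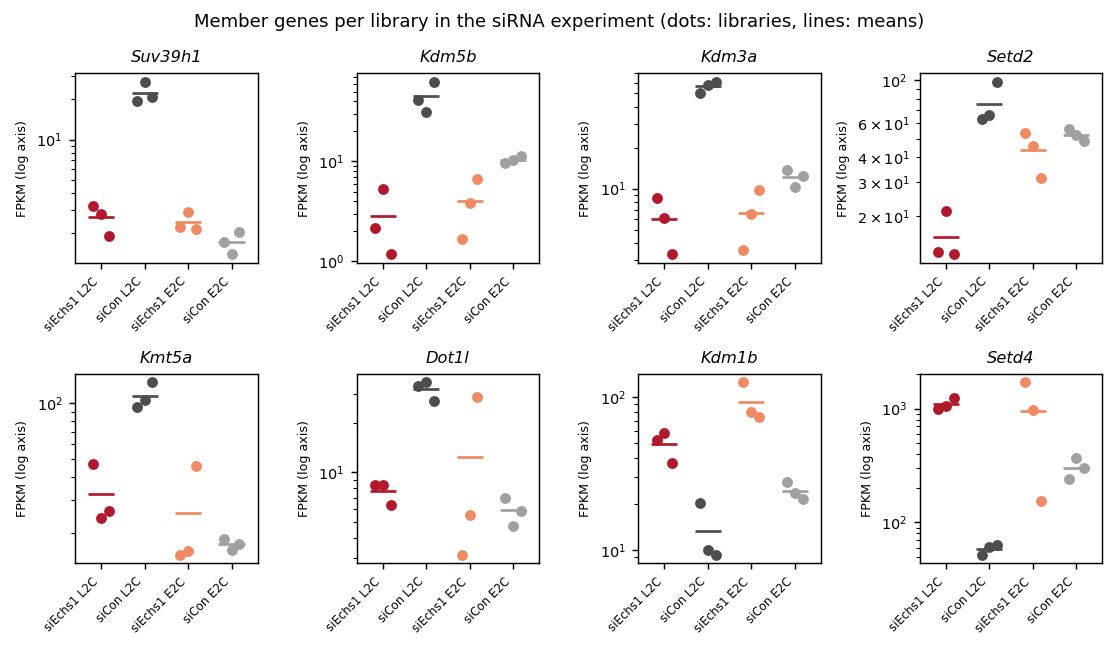
FPKM of 8 members in the 12 siRNA libraries, with 1 point per library and a line at the mean of 3 libraries, on log axes with a range of their own in each panel, for siEchs1 L2C, siCon L2C, siEchs1 E2C and siCon E2C. Suv39h1, Kdm5b, Kdm3a and Dot1l have their highest mean in siCon L2C, and Kdm1b and Setd4 are higher in siEchs1 than in siCon at L2C.

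The H3K9 erasers Kdm3a and Kdm3b remove mono- and dimethylation. Kdm3a (chr6:71588972-71632990, minus strand) had 8.46, 6.08 and 3.28 FPKM in siEchs1 L2C, against 50.5, 58.1 and 60.7 FPKM in siCon L2C. At E2C, Kdm3a had 3.55, 6.49 and 9.72 FPKM in siEchs1, against 13.8, 10.3 and 12.3 FPKM in siCon. All siEchs1 libraries were below siCon at both stages, and the difference passed at L2C (log2 fold change -3.12 with SE 0.38, adjusted p = 0.0001) and not at E2C (log2 fold change -0.87 with SE 0.38, adjusted p = 0.124), where it was called lower without siEchs1 E2C replicate 3 (adjusted p = 0.0214). In siCon it was higher at L2C than at E2C (log2 fold change 2.13 with SE 0.38, adjusted p = 0.000571). Kdm3b had 9.86, 7.73 and 4.88 FPKM in siEchs1 L2C, against 23.9, 16 and 18.6 FPKM in siCon L2C. At E2C, Kdm3b had 4.13, 3.61 and 3.69 FPKM in siEchs1, against 3.48, 1.58 and 1.54 FPKM in siCon. It was lower in siEchs1 at L2C (log2 fold change -1.30 with SE 0.35, adjusted p = 0.00825) and higher at L2C than E2C in siCon (log2 fold change 2.71 with SE 0.35, adjusted p = 5.89e-05).

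Kdm4 enzymes remove H3K9 trimethylation, and Kdm4a to Kdm4c also act on H3K36. Kdm4c had 2.79, 2.27 and 0.43 FPKM in siEchs1 L2C, against 19.7, 20.4 and 26.6 FPKM in siCon L2C. At E2C, Kdm4c had 1.76, 1.58 and 3.47 FPKM in siEchs1, against 14.6, 6.34 and 9.47 FPKM in siCon. Kdm4c was lower in siEchs1 without overlap at L2C (log2 fold change -3.14 with SE 0.43, adjusted p = 0.000167) and at E2C (log2 fold change -1.75 with SE 0.43, adjusted p = 0.0145), and higher at L2C than E2C in siCon (log2 fold change 1.12 with SE 0.43, adjusted p = 0.0454). The L2C knockdown call held in every setting. The E2C call did not (adjusted p = 0.0577 to 0.0625 without siCon E2C replicate 1 or siEchs1 E2C replicate 2 and 0.0538 with the compared libraries alone), nor did the stage call (adjusted p = 0.0513 to 0.172 without siCon E2C replicate 2 or 3, any siCon L2C library, siEchs1 E2C replicate 2 or siEchs1 L2C replicate 2, 0.126 with a pseudocount of 0.1, 0.0838 with no filter on low values, 0.447 with quantile normalization and 0.0633 with the replicate number as a block).

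Kdm4a and Kdm4b differed between stages in both arms. Kdm4b had 6.63, 3.62 and 2.72 FPKM in siEchs1 L2C, against 0.68, 2.05 and 0.17 FPKM in siEchs1 E2C, and 4.77, 4.82 and 4.96 FPKM in siCon L2C, against 0.02, 0.4 and 0.09 FPKM in siCon E2C. Every L2C library was above every E2C library (log2 fold change 1.48 with SE 0.39, adjusted p = 0.023 in siEchs1, and log2 fold change 2.34 with SE 0.39, adjusted p = 0.000344 in siCon). Kdm4a, whose maternal product mouse embryos need, averaged 16.9 ± 1.43 FPKM in siEchs1 L2C, 6.56 ± 5.93 FPKM in siEchs1 E2C, 29.8 ± 11.1 FPKM in siCon L2C and 3.57 ± 0.834 FPKM in siCon E2C (SD, n = 3 each; log2 fold change 1.51 with SE 0.46, adjusted p = 0.0444 in siEchs1, and log2 fold change 2.71 with SE 0.46, adjusted p = 0.000416 in siCon). In siEchs1 the Kdm4b call ended under other settings (adjusted p = 0.0558 to 0.104 without siEchs1 E2C replicate 1 or siEchs1 L2C replicate 1 or 2, 0.0569 with a pseudocount of 0.1, 0.0536 with no filter on low values, 0.134 with the compared libraries alone and 0.0814 with quantile normalization), and so did that of Kdm4a (adjusted p = 0.0562 to 0.129 without any siCon E2C library, siCon L2C replicate 1 or 2, siEchs1 E2C replicate 1 or 2 or any siEchs1 L2C library, 0.106 with no filter on low values, 0.166 with the compared libraries alone, 0.192 with quantile normalization, 0.0554 with the replicate number as a block and 0.0536 after rescaling without mitochondrial and ribosomal RNA).

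Kdm4d was low, with 1.03, 0.68 and 0.23 FPKM in siEchs1 L2C, against 1.86, 1.62 and 0.57 FPKM in siCon L2C. At E2C, Kdm4d had 0.71, 0.21 and 0.49 FPKM in siEchs1, against 0.65, 0.12 and 0.11 FPKM in siCon. All of these groups overlapped, and the siCon stage call (log2 fold change 0.84 with SE 0.31, adjusted p = 0.0373) ended under other settings (adjusted p = 0.0507 to 0.123 without siCon E2C replicate 2 or 3, siCon L2C replicate 1 or 2 or siEchs1 L2C replicate 2, 0.065 with no filter on low values and 0.283 with quantile normalization). The related pseudogene Kdm4dl was far higher in siCon L2C. It had 11.7, 5.55 and 3.89 FPKM in siEchs1 L2C, against 76.2, 88.5 and 58.9 FPKM in siCon L2C. At E2C, Kdm4dl had 0.8, 2.92 and 4.77 FPKM in siEchs1, against 1.7, 1.95 and 2.3 FPKM in siCon. It was lower in siEchs1 at L2C (log2 fold change -3.33 with SE 0.45, adjusted p = 0.000167) and higher at L2C than E2C in siCon (log2 fold change 4.65 with SE 0.45, adjusted p = 1.16e-05), and how reads were divided between it and Kdm4d is not known.

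Of the PHD-containing erasers, Kdm7a had 5.42, 7.21 and 7.82 FPKM in siEchs1 L2C, against 36.2, 33.4 and 24.4 FPKM in siCon L2C. At E2C, Kdm7a had 15.5, 16.8 and 92.8 FPKM in siEchs1, against 33.4, 24.8 and 24.8 FPKM in siCon. The highest value came from siEchs1 E2C replicate 3. Kdm7a was lower in siEchs1 at L2C (log2 fold change -2.04 with SE 0.54, adjusted p = 0.00804) and lower at L2C than E2C within siEchs1 (log2 fold change -1.96 with SE 0.54, adjusted p = 0.0298). The second call ended under other settings (adjusted p = 0.0621 to 0.111 without any siEchs1 L2C library, 0.0805 with no filter on low values, 0.158 with the compared libraries alone and 0.0554 after rescaling without mitochondrial and ribosomal RNA). Phf8 passed no siRNA or stage test other than L2C over E2C in siCon in 1 setting, where it was lower (adjusted p = 0.03 with quantile normalization), and Phf2 passed between stages in siCon (1.99 ± 0.819 FPKM in L2C, 0.64 ± 0.0265 FPKM in E2C, SD, n = 3 each; log2 fold change 0.83 with SE 0.29, adjusted p = 0.0309), a call that ended under other settings (adjusted p = 0.0721 to 0.114 without any siCon E2C library or siCon L2C replicate 1 or 2, 0.366 with quantile normalization and 0.0506 with the replicate number as a block).

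Polycomb repressive complex 2, which writes H3K27 methylation with Ezh1 or Ezh2 as its enzyme and Eed and Suz12 as its core, gave 1 call at L2C, that of Ezh1. Eed had 144, 156 and 189.52 FPKM in siEchs1 L2C, against 188, 162 and 173 FPKM in siCon L2C. At E2C, Eed had 208, 128 and 201 FPKM in siEchs1, against 164, 164 and 184 FPKM in siCon. These groups overlapped throughout, and the difference at L2C was -0.10 ± 0.28 (95% interval -0.71 to 0.50, adjusted p = 0.783). Ezh2 had 208, 239 and 236 FPKM in siEchs1 L2C, against 141, 127 and 110.45 FPKM in siCon L2C, without overlap. At E2C, Ezh2 had 215, 216 and 577 FPKM in siEchs1, against 203, 189.88 and 264 FPKM in siCon. Its L2C difference missed the threshold with all libraries (log2 fold change 0.85 with SE 0.37, adjusted p = 0.0733) and was called higher in siEchs1 in 2 other fits (adjusted p = 0.00454 without siEchs1 E2C replicate 3 and 0.0124 with the compared libraries alone).

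Ezh1 was lower in siEchs1 at L2C, at 13.9 ± 0.52 FPKM, against 23 ± 0.995 FPKM in siCon L2C (SD, n = 3 each; log2 fold change -0.69 with SE 0.26, adjusted p = 0.0451), a call that ended in most settings (adjusted p = 0.0511 to 0.116 without any siCon E2C library, any siCon L2C library, siEchs1 E2C replicate 2 or any siEchs1 L2C library, 0.0595 with no filter on low values, 0.0504 with the compared libraries alone, 0.0517 with quantile normalization, 0.078 with the replicate number as a block and 0.0748 after rescaling without mitochondrial and ribosomal RNA). In siCon it was higher at L2C than at E2C (log2 fold change 0.98 with SE 0.26, adjusted p = 0.00813; adjusted p = 0.382 with quantile normalization). Suz12 averaged 43.9 ± 6.03 FPKM in siEchs1 L2C and 107 ± 24.2 FPKM in siCon L2C, and 121 ± 129.63 FPKM in siEchs1 E2C and 144 ± 13.3 FPKM in siCon E2C (SD, n = 3 each). All siEchs1 L2C libraries were below siCon L2C, and the test missed the threshold with all libraries (log2 fold change -1.25 with SE 0.55, adjusted p = 0.077) and called it lower in 2 other fits (adjusted p = 0.000666 without siEchs1 E2C replicate 3 and 0.00369 with the compared libraries alone). At E2C, siEchs1 replicate 3 had 270 FPKM of Suz12 and the other two 51.4 and 40.6.

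Kdm6a and Kdm6b remove H3K27 di- and trimethylation. Kdm6a had 9.64, 16.3 and 10.6 FPKM in siEchs1 L2C, against 31.9, 21.7 and 25.6 FPKM in siCon L2C. At E2C, Kdm6a had 23.1, 25.5 and 56.6 FPKM in siEchs1, against 39.4, 31.5 and 30.8 FPKM in siCon. It was lower in siEchs1 at L2C (log2 fold change -1.08 with SE 0.37, adjusted p = 0.0288) and lower at L2C than E2C within siEchs1 (log2 fold change -1.37 with SE 0.37, adjusted p = 0.0266). Both calls ended under other settings (adjusted p = 0.0575 to 0.0943 without siCon L2C replicate 1 or 3 or siEchs1 L2C replicate 1 or 3, 0.0559 with no filter on low values and 0.0568 after rescaling without mitochondrial and ribosomal RNA for the first, and adjusted p = 0.0836 to 0.109 without siEchs1 L2C replicate 1 or 3, 0.0621 with no filter on low values, 0.137 with the compared libraries alone and 0.0632 after rescaling without mitochondrial and ribosomal RNA for the second). Kdm6b had 18.8, 20.2 and 22.7 FPKM in siEchs1 L2C, against 27.7, 28.5 and 15.1 FPKM in siCon L2C. At E2C, Kdm6b had 22.8, 20.6 and 31.8 FPKM in siEchs1, against 23.8, 8.89 and 12.3 FPKM in siCon. Its groups overlapped, and of its siRNA and stage tests 1 passed, L2C over E2C in siCon in a single other fit (adjusted p = 0.0421 without siCon E2C replicate 1).

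The 4 H3K36 writers were lower in siEchs1 at L2C. Setd2, which makes the trimethylated form behind elongating polymerase, had 13.1, 21.2 and 12.7 FPKM in siEchs1 L2C, against 62.8, 65.8 and 97.7 FPKM in siCon L2C. At E2C, Setd2 had 53.6, 45.9 and 31.5 FPKM in siEchs1, against 55.8, 51.9 and 48.3 FPKM in siCon. The L2C groups were far apart (log2 fold change -2.20 with SE 0.32, adjusted p = 0.000232) and the E2C groups overlapped (log2 fold change -0.28 with SE 0.32, adjusted p = 0.582). Within siEchs1 it was lower at L2C than at E2C (log2 fold change -1.42 with SE 0.32, adjusted p = 0.0118), while in siCon the difference was 0.50 ± 0.32 with adjusted p = 0.215 and was called higher at L2C in 1 other setting (adjusted p = 0.0342 after rescaling without mitochondrial and ribosomal RNA). The siEchs1 stage call ended in 2 settings (adjusted p = 0.0573 without siEchs1 L2C replicate 1 and 0.0899 with the compared libraries alone).

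The dimethylation writers were lower as well. Nsd1 averaged 17.2 ± 4.03 FPKM in siEchs1 L2C and 39.5 ± 10.2 FPKM in siCon L2C (SD, n = 3 each; log2 fold change -1.15 with SE 0.41, adjusted p = 0.0363). Nsd2 averaged 7.48 ± 1.08 FPKM in siEchs1 L2C and 21.1 ± 6.83 FPKM in siCon L2C (log2 fold change -1.35 with SE 0.46, adjusted p = 0.0275). Nsd3 averaged 6.78 ± 0.721 FPKM in siEchs1 L2C and 22.1 ± 1.59 FPKM in siCon L2C (log2 fold change -1.57 with SE 0.32, adjusted p = 0.00183). No siEchs1 library reached a siCon library for any of them. The Nsd3 call held in every setting. Those of Nsd1 (adjusted p = 0.0509 to 0.119 without siCon E2C replicate 3, siCon L2C replicate 1 or 2 or siEchs1 L2C replicate 1 or 2, 0.0724 with no filter on low values and 0.0682 after rescaling without mitochondrial and ribosomal RNA) and Nsd2 (adjusted p = 0.0562 to 0.102 without siCon L2C replicate 1 or 2 or siEchs1 L2C replicate 1 or 3 and 0.0597 with no filter on low values) did not. Nsd2 exons overlap those of Nelfa on the other strand. Nsd3 was also higher at L2C than E2C in siCon (log2 fold change 1.24 with SE 0.32, adjusted p = 0.00683; adjusted p = 0.173 with quantile normalization).

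The H3K36 erasers were higher at L2C than at E2C in siCon, all 3 of them. Kdm2b, which binds CpG islands and brings Polycomb repressive complex 1 there, had 26.6, 36.8 and 26.9 FPKM in siEchs1 L2C, against 33.4, 34.2 and 71.2 FPKM in siCon L2C. At E2C, Kdm2b had 32.8, 47.4 and 49.3 FPKM in siEchs1, against 17.6, 18.3 and 15 FPKM in siCon. At E2C every siEchs1 library was above siCon (log2 fold change 1.28 with SE 0.34, adjusted p = 0.021), and at L2C the groups overlapped (log2 fold change -0.53 with SE 0.34, adjusted p = 0.22). In siCon the L2C libraries were higher (log2 fold change 1.31 with SE 0.34, adjusted p = 0.00694; adjusted p = 0.127 with quantile normalization). The E2C knockdown call ended under other settings (adjusted p = 0.056 to 0.0808 without any siCon E2C library or siEchs1 E2C replicate 2, 0.0578 with the compared libraries alone and 0.0771 with quantile normalization). Kdm2b exons overlap Rnf34 on the other strand, which was higher in siEchs1 at E2C (log2 fold change 1.49 with SE 0.33, adjusted p = 0.00852) and at L2C (log2 fold change 2.85 with SE 0.33, adjusted p = 7.88e-05).

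Kdm8, a Jumonji protein reported as an H3K36 dimethylation eraser, had 5.61, 3.48 and 4.11 FPKM in siEchs1 L2C, against 6.16, 6.1 and 12.4 FPKM in siCon L2C. At E2C, Kdm8 had 0.64, 0.71 and 0.16 FPKM in siEchs1, against 0.1, 0 and 0.09 FPKM in siCon. It was higher at L2C in siEchs1 (log2 fold change 1.85 with SE 0.33, adjusted p = 0.00355) and in siCon (log2 fold change 3.05 with SE 0.33, adjusted p = 2.02e-05), in every setting. Kdm2a averaged 16 ± 2.19 FPKM in siCon L2C and 4.49 ± 1.36 FPKM in siCon E2C (SD, n = 3 each; log2 fold change 1.65 with SE 0.47, adjusted p = 0.0114), a call that ended in 2 settings (adjusted p = 0.0502 without siCon E2C replicate 3 and 0.0992 with quantile normalization).

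Dot1l, the H3K79 methyltransferase, had 8.4, 8.32 and 6.37 FPKM in siEchs1 L2C, against 33.5, 35.2 and 27 FPKM in siCon L2C. At E2C, Dot1l had 3.16, 5.49 and 28.6 FPKM in siEchs1, against 7.01, 4.75 and 5.85 FPKM in siCon. The siCon L2C libraries were above all other siRNA libraries but siEchs1 E2C replicate 3, and the gene was lower in siEchs1 at L2C (log2 fold change -1.92 with SE 0.56, adjusted p = 0.0129) and higher at L2C than E2C in siCon (log2 fold change 2.26 with SE 0.56, adjusted p = 0.00481).

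Kmt5a writes H4K20 monomethylation, which is needed for genome integrity through the cell cycle, and Kmt5b and Kmt5c extend it to the di- and trimethylated forms. Kmt5a had 47, 23.9 and 26.2 FPKM in siEchs1 L2C, against 95, 104 and 130.13 FPKM in siCon L2C. At E2C, Kmt5a had 15.2, 15.9 and 45.9 FPKM in siEchs1, against 18.4, 16.1 and 17.3 FPKM in siCon. Kmt5a was lower in siEchs1 at L2C without overlap (log2 fold change -1.78 with SE 0.42, adjusted p = 0.00387) and higher at L2C than E2C in siCon (log2 fold change 2.59 with SE 0.42, adjusted p = 0.000286). Kmt5b averaged 4.64 ± 1.14 FPKM in siEchs1 L2C and 22.1 ± 0.472 FPKM in siCon L2C (SD, n = 3 each) and was lower in siEchs1 (log2 fold change -2.05 with SE 0.34, adjusted p = 0.000516).

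Kmt5c had 20.8, 9.57 and 6.42 FPKM in siEchs1 L2C, against 0.88, 0.51 and 0.06 FPKM in siEchs1 E2C, and 7.77, 7.31 and 4.18 FPKM in siCon L2C, against 0.55, 1.18 and 0.3 FPKM in siCon E2C. It was higher at L2C in siEchs1 (log2 fold change 3.05 with SE 0.43, adjusted p = 0.000998) and in siCon (log2 fold change 2.14 with SE 0.43, adjusted p = 0.00132), while its knockdown difference at L2C was 0.73 ± 0.43 (95% interval -0.21 to 1.66, adjusted p = 0.18). All 3 H4K20 writers were higher at L2C than E2C in siCon, although Kmt5b missed the threshold with quantile normalization (log2 fold change 1.41 with SE 0.34, adjusted p = 0.00453; adjusted p = 0.1 under that setting).

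**Figure D4:**
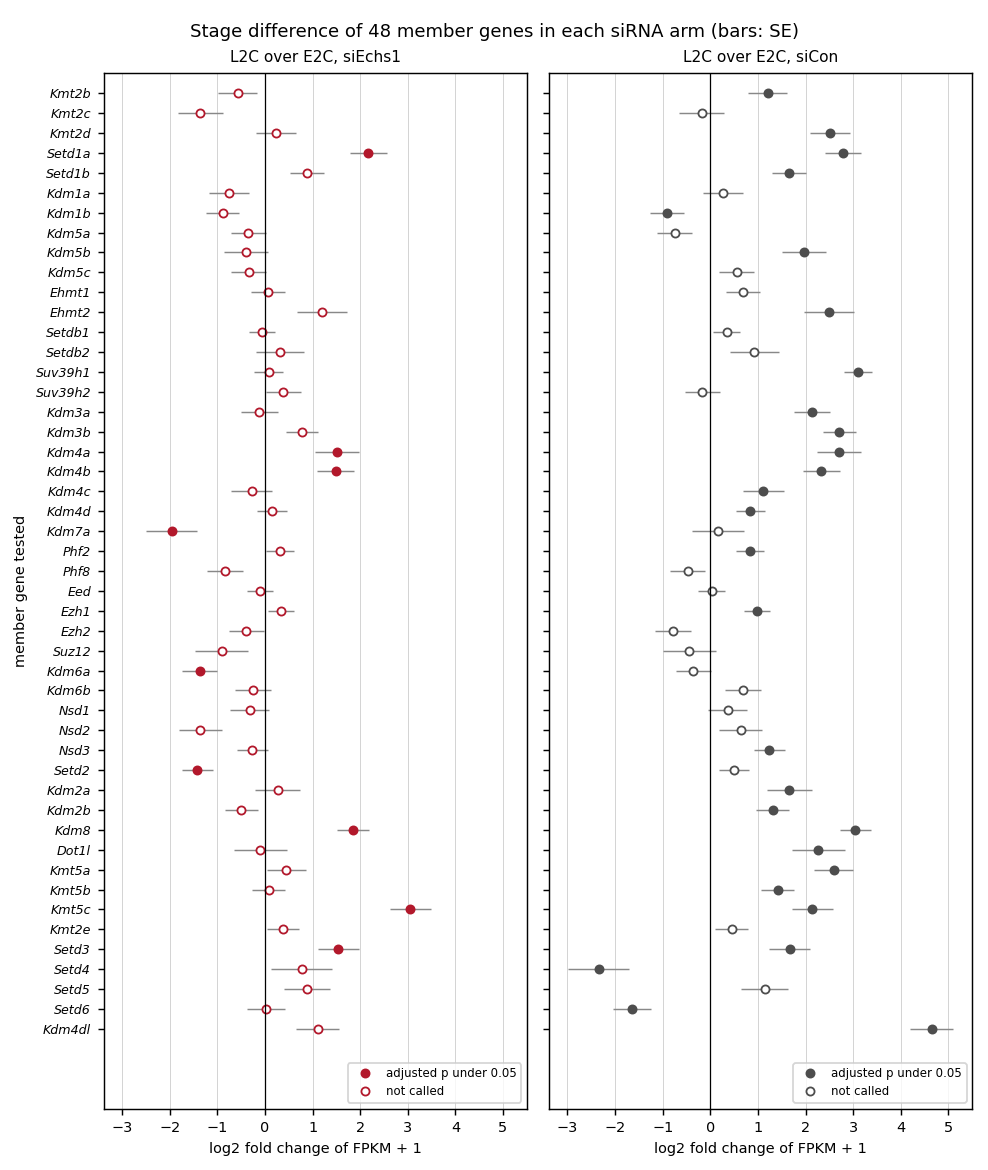
Log2 fold change of FPKM + 1, L2C over E2C, for the 48 members tested, within siEchs1 (left) and within siCon (right), as points with bars of 1 standard error; filled points have an adjusted p under 0.05. In siCon 25 filled points lie right of zero and 3 left of it, and in siEchs1 6 and 3 do.

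The largest positive knockdown difference among the members at L2C was that of Setd4, a SET-domain protein with no settled histone target. It had 993, 1044 and 1234 FPKM in siEchs1 L2C, against 51.9, 60.5 and 62.7 FPKM in siCon L2C. At E2C, Setd4 had 1705, 976 and 155 FPKM in siEchs1, against 241, 367 and 301 FPKM in siCon. The L2C groups lay far apart (log2 fold change 4.20 with SE 0.64, adjusted p = 0.000304), whereas at E2C replicates 1 and 2 of siEchs1 were above siCon and replicate 3 below it (log2 fold change 1.09 with SE 0.64, adjusted p = 0.252; log2 fold change 2.11, adjusted p = 0.000113 without replicate 3). In siCon it was lower at L2C than at E2C (log2 fold change -2.34 with SE 0.64, adjusted p = 0.00919), and in siEchs1 the stages overlapped (log2 fold change 0.77 with SE 0.64, adjusted p = 0.493). The gene (chr16:93583457-93604063, minus strand) overlaps the antisense gene Gm49961.

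Setd6, which methylates the NF-kappaB subunit RelA, had 33.8, 32.1 and 27.1 FPKM in siEchs1 L2C, against 13.6, 21.9 and 5.71 FPKM in siCon L2C. At E2C, Setd6 had 30.6, 35 and 25.8 FPKM in siEchs1, against 32.4, 43.9 and 45 FPKM in siCon. It was higher in siEchs1 at L2C without overlap (log2 fold change 1.28 with SE 0.40, adjusted p = 0.0182), a call that ended without some libraries (adjusted p = 0.0518 to 0.0651 without siCon L2C replicate 3 or siEchs1 L2C replicate 1 or 2), and lower at L2C than E2C in siCon (log2 fold change -1.65 with SE 0.40, adjusted p = 0.00437). Setd3, an actin histidine methyltransferase, was higher at L2C than at E2C in siEchs1 (37 ± 5.22 FPKM in L2C, 14.3 ± 11 FPKM in E2C; log2 fold change 1.54 with SE 0.43, adjusted p = 0.0319) and in siCon (25.3 ± 4.56 FPKM in L2C, 7.3 ± 1.55 FPKM in E2C, SD, n = 3 each; log2 fold change 1.67 with SE 0.43, adjusted p = 0.00667). The siEchs1 call ended under other settings (adjusted p = 0.0743 to 0.0966 without siEchs1 E2C replicate 1 or 2 or any siEchs1 L2C library, 0.0797 with no filter on low values, 0.155 with the compared libraries alone and 0.142 with quantile normalization), and the siCon call reached adjusted p = 0.0888 with quantile normalization. Kmt2e passed no siRNA or stage test in any fit. Setd5 passed none with all libraries and the settings above, and in other fits it was higher at L2C than E2C in siCon (adjusted p = 0.00265 to 0.0466 without siEchs1 E2C replicate 2 or 3, 0.00725 with the compared libraries alone and 0.0399 after rescaling without mitochondrial and ribosomal RNA) and in siEchs1 (adjusted p = 0.00322 without siEchs1 E2C replicate 3) and lower in siEchs1 at E2C (adjusted p = 0.022 without siEchs1 E2C replicate 3).

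Several proteins that work with these enzymes were taken as lists, and the share of all genes called is that given above. At L2C, of 13 core subunits and cofactors of the H3K4 writers 3 were higher in siEchs1, among them Cxxc1 (log2 fold change 1.93 with SE 0.31, adjusted p = 0.000416) and Men1 (log2 fold change 2.17 with SE 0.43, adjusted p = 0.0015), and Hcfc1 was lower (log2 fold change -1.54 with SE 0.39, adjusted p = 0.00595). At E2C 3 were higher, Cxxc1 (log2 fold change 1.74 with SE 0.31, adjusted p = 0.00307) and Men1 (log2 fold change 2.30 with SE 0.43, adjusted p = 0.00389) among them, and Dpy30 was lower (log2 fold change -1.30 with SE 0.34, adjusted p = 0.0181). Of 7 Polycomb repressive complex 2 cofactors tested, 2 were higher at L2C, the histone chaperones Rbbp7 (log2 fold change 1.72 with SE 0.32, adjusted p = 0.000992) and Rbbp4 (log2 fold change 0.96 with SE 0.33, adjusted p = 0.0306). Mtf2 (log2 fold change -1.82 with SE 0.50, adjusted p = 0.0097) and Aebp2 (log2 fold change -1.63 with SE 0.46, adjusted p = 0.0116) were lower. At E2C 3 were higher and none lower.

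Of 10 readers and corepressors of H3K9 methylation, 3 were higher at L2C, with Cbx1 (log2 fold change 2.33 with SE 0.34, adjusted p = 0.000234) and Mphosph8 (log2 fold change 2.30 with SE 0.34, adjusted p = 0.000248) among them. The heterochromatin proteins Cbx3 (log2 fold change -3.53 with SE 0.51, adjusted p = 0.000228) and Cbx5 (log2 fold change -0.88 with SE 0.27, adjusted p = 0.016) were lower. At E2C Trim28 (log2 fold change 1.93 with SE 0.37, adjusted p = 0.0043) and Mphosph8 were higher and Cbx3 and Cbx5 lower. Of 10 other SET and PRDM methyltransferases tested, 3 were higher at L2C, among them Smyd2 (log2 fold change 2.67 with SE 0.32, adjusted p = 9.03e-05) and Prdm16 (log2 fold change 1.65 with SE 0.31, adjusted p = 0.00107), and 3 were lower, among them Prdm9 (log2 fold change -2.19 with SE 0.37, adjusted p = 0.000507) and Mecom (log2 fold change -3.07 with SE 0.70, adjusted p = 0.0034). At E2C Smyd2 (log2 fold change 1.74 with SE 0.32, adjusted p = 0.00318) and Setmar (log2 fold change 1.61 with SE 0.44, adjusted p = 0.0221) were higher.

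Other demethylases and cofactors were mostly lower at L2C, with 6 of 9 called lower, among them Rcor2 (log2 fold change -2.47 with SE 0.36, adjusted p = 0.000219) and Riox1 (log2 fold change -3.38 with SE 0.50, adjusted p = 0.000252), and 1 higher, Rcor3 (log2 fold change 1.42 with SE 0.42, adjusted p = 0.0144). In siCon 7 of those 9 were higher at L2C than at E2C. At E2C Jmjd6 (log2 fold change 1.13 with SE 0.30, adjusted p = 0.019) and Hmg20b (log2 fold change 1.19 with SE 0.36, adjusted p = 0.0347) were higher in siEchs1 and Jmjd1c (log2 fold change -1.11 with SE 0.36, adjusted p = 0.0458) lower. Of 9 genes that supply S-adenosylmethionine, the methyl donor, 3 were higher at L2C, among them Mat1a (log2 fold change 2.93 with SE 0.36, adjusted p = 0.000103) and Ahcy (log2 fold change 2.82 with SE 0.46, adjusted p = 0.000431), and Mtrr (log2 fold change -1.85 with SE 0.44, adjusted p = 0.00433) was among those that were lower. At E2C Mat1a (log2 fold change 2.11 with SE 0.36, adjusted p = 0.0023) and Mat2a (log2 fold change 1.14 with SE 0.30, adjusted p = 0.0192) were higher. Mat1a and Mat2a encode the synthetases that make the donor.

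Crotonate and acetate gave no member call. Crotonate is an unsaturated short-chain carboxylate and acetate a shorter, saturated one. With 2 libraries a group, limma called 0 of 44 members for crotonate over DMSO (0.529% of 13789 genes called, 0.21% higher and 0.319% lower), 0 for acetate over DMSO (0.0653%, 0.00725% higher and 0.058% lower) and 0 for crotonate over acetate (1.86%, 1.02% higher and 0.841% lower). At an unadjusted p under 0.05, 6, 2 and 5 members differed. The members' medians were -0.23, -0.47 and 0.21, against -0.15, -0.081 and -0.091 over all genes. Groups of 2 libraries did not overlap for 33, 16 and 17 members, while they did not for 57.6%, 34.8% and 45.5% of all genes. The first and second comparison share the DMSO libraries, and the doses are not given.

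The members with the smallest p against DMSO in crotonate were Kdm2a, Ehmt1 and Kdm4c, named after their values were seen. Kdm2a had 282 and 122 FPKM in crotonate libraries, 86 and 38.5 in acetate libraries and 50.8 and 68.9 in DMSO libraries. Crotonate was above DMSO by 1.63 on the log2 scale (95% interval 0.46 to 2.80, adjusted p = 0.17) and above acetate by 1.67 (95% interval 0.49 to 2.84, adjusted p = 0.124). Ehmt1 had 13.4 and 10.6 FPKM in crotonate libraries, 12.3 and 27 in acetate libraries and 33.6 and 28.5 in DMSO libraries. Its crotonate libraries were both below the DMSO libraries (log2 fold change -1.31 with SE 0.41, adjusted p = 0.175), while 1 acetate library lay between the crotonate libraries and the other between crotonate and DMSO. Kdm4c had 4.13 and 2.87 FPKM in crotonate libraries, 1.83 and 0.94 in acetate libraries and 0.89 and 1.23 in DMSO libraries (log2 fold change 1.12 with SE 0.36, adjusted p = 0.187 for crotonate over DMSO).

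Whether some crotonate differences were called turned on the acetate libraries, which enter the shared estimate of spread. Setdb1 had 38.5 and 47.1 FPKM in crotonate libraries, 34.1 and 107 in acetate libraries and 95 and 108 in DMSO libraries. Both crotonate libraries were below both DMSO libraries, and the acetate libraries differed by about as much as the groups did. Crotonate over DMSO gave log2 fold change -1.23 with SE 0.49, adjusted p = 0.274 with all libraries, log2 fold change -1.23, adjusted p = 0.0257 without acetate replicate 1 and log2 fold change -1.23, adjusted p = 0.0286 without acetate replicate 2. Ehmt1 (log2 fold change -1.31, adjusted p = 0.0291 without acetate replicate 1, and log2 fold change -1.31, adjusted p = 0.0328 without replicate 2) and Setd1a behaved likewise. Setd1a had 12 and 11.2 FPKM in crotonate libraries, 5.34 and 19.9 in acetate libraries and 25.2 and 24.7 in DMSO libraries (log2 fold change -1.04 with SE 0.53, adjusted p = 0.38 with all libraries, log2 fold change -1.04, adjusted p = 0.0358 without acetate replicate 1 and log2 fold change -1.04, adjusted p = 0.0407 without replicate 2). With the compared libraries alone, the same 3 of 44 members were called lower and none higher. Over all 13789 genes that fit called 848 lower and 299 higher, against 44 and 29 with all libraries. Calls thus rose over all genes as well.

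For acetate, values depended on which acetate library was kept. Without acetate replicate 2, the log2 fold change over DMSO was -1.54 for Setdb1 and -1.91 for Kmt2d. Acetate replicate 2 itself had 107 FPKM of Setdb1, within the range of the DMSO libraries, and 23 FPKM of Kmt2d, above both. A fit without 1 acetate library assumes that the lone one varies like the other groups, so no acetate call is read from it. Kmt2d had 12.4 and 20.2 FPKM in crotonate libraries, 4.38 and 23 in acetate libraries and 19 and 19.4 in DMSO libraries, and acetate replicate 1 was the single low library. Kmt2b had 3.18 and 4.71 FPKM in crotonate libraries, 1.41 and 4.2 in acetate libraries and 6.84 and 9.05 in DMSO libraries, with acetate below DMSO in both libraries (log2 fold change -1.33 with SE 0.46, adjusted p = 0.784, 95% interval -2.39 to -0.27). Suv39h2 had 36.8 and 37.5 FPKM in crotonate libraries, 16 and 36 in acetate libraries and 54.6 and 50.9 in DMSO libraries (log2 fold change -1.10 with SE 0.40, adjusted p = 0.784 for acetate, 95% interval -2.02 to -0.18).

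**Figure D5:**
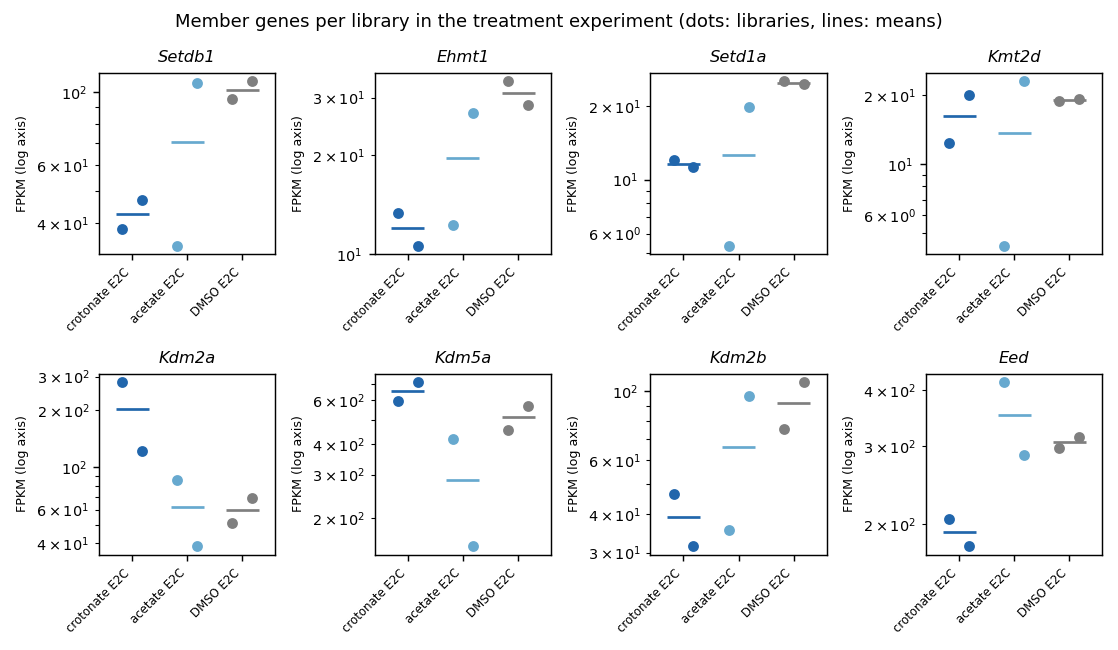
FPKM of 8 members in the 6 treatment libraries, with 1 point per library and a line at the mean, on log axes with a range of their own in each panel, for crotonate, acetate and DMSO, all at E2C. The crotonate points of Setdb1, Ehmt1 and Setd1a lie below the DMSO points, and the 2 acetate points of Setdb1, Kmt2d and Kdm5a are far apart.

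Between the 2 acids, Kmt5b, Kdm2a, Kdm5a, Eed and Kdm4c had an unadjusted p under 0.05 and none passed the adjustment over all genes. Kdm5a had 599 and 714 FPKM in crotonate libraries, 418 and 153 in acetate libraries and 454 and 572 in DMSO libraries. Crotonate was above acetate (log2 fold change 1.37 with SE 0.45, adjusted p = 0.153, 95% interval 0.31 to 2.42), with a log2 fold change of 2.09 without acetate replicate 1. Eed had 205 and 179 FPKM in crotonate libraries, 417 and 287 in acetate libraries and 297 and 314 in DMSO libraries, with crotonate lowest. For crotonate over acetate its log2 fold change was -0.85 with SE 0.29 (adjusted p = 0.159, 95% interval -1.51 to -0.18), and -1.12 without acetate replicate 2. Without acetate replicate 2, log2 fold changes of crotonate over acetate were 1.40 for Kmt2c, 1.65 for Kmt2d and 1.62 for Kmt5a. They were 1.17 for Suv39h2, 1.09 for Kdm6a and 1.09 for Kdm7a. Without replicate 1 that of Setdb1 was -1.31. These values rest on 1 acetate library each. With all libraries, 30 of 44 members had a positive value in this comparison, and none was called. The share of positive values over all genes is not given, so the count is not read as a shift of the members. Kmt5b averaged 8.74 ± 1.82 FPKM in crotonate, 3.06 ± 0.856 FPKM in acetate and 5.29 ± 0.672 FPKM in DMSO (SD, n = 2 each; log2 fold change 1.27 with SE 0.36, adjusted p = 0.108 for crotonate over acetate).

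The H3K4 and H3K36 erasers went both ways between crotonate and DMSO. Kdm2b, Kdm1b, Kdm1a and Kdm5c were lower in both crotonate libraries than in both DMSO libraries. Kdm5a, Kdm5b and Kdm2a were higher in both, and Kdm8 overlapped. None of these differences passed, and 57.6% of all genes did not overlap in this comparison. Kdm2b had 46.6 and 31.5 FPKM in crotonate libraries, 35.5 and 96.8 in acetate libraries and 75.3 and 108 in DMSO libraries (log2 fold change -1.21 with SE 0.48, adjusted p = 0.272 for crotonate over DMSO). Kdm1b had 37.2 and 32.9 FPKM in crotonate libraries, 33.2 and 62.5 in acetate libraries and 49.99 and 53.4 in DMSO libraries (log2 fold change -0.55 with SE 0.36, adjusted p = 0.498 for crotonate over DMSO). Kdm1a had 5.15 and 4.76 FPKM in crotonate libraries, 7.79 and 10.7 in acetate libraries and 8.88 and 8.46 in DMSO libraries (log2 fold change -0.70 with SE 0.33, adjusted p = 0.352). The acetate libraries of Kdm2b and Kdm1b lay far apart.

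Ezh2 had 362 and 434 FPKM in crotonate libraries, 250.18 and 465 in acetate libraries and 437 and 496 in DMSO libraries. Setd2 had 10.2 and 7.17 FPKM in crotonate libraries, 10.1 and 10.9 in acetate libraries and 7.64 and 8.42 in DMSO libraries. Dot1l had 9.48 and 9.73 FPKM in crotonate libraries, 4.21 and 9.57 in acetate libraries and 10.3 and 10.1 in DMSO libraries. The last showed the single low library, acetate replicate 1, again. Kmt5a had 21.4 and 20.3 FPKM in crotonate libraries, 6.12 and 18.7 in acetate libraries and 17.9 and 14.6 in DMSO libraries, where acetate replicate 1 was low again. Kdm5b had 5.16 and 4.35 FPKM in crotonate libraries, 3.3 and 2.68 in acetate libraries and 3.48 and 3.61 in DMSO libraries. Kdm6b had 5.32 and 5.13 FPKM in crotonate libraries, 4.29 and 6.21 in acetate libraries and 5.95 and 8.48 in DMSO libraries. The untested members Suv39h1 (0.33 to 1.09 FPKM), Ehmt2 (0.3 to 1.39 FPKM), Kdm4d (0.06 to 0.36 FPKM) and Kdm8 (0 to 1.34 FPKM) were low in every treatment library. Oocyte transcripts summed to 3203 to 3904 FPKM in crotonate, 4406 to 4807 FPKM in acetate and 3791 to 4082 FPKM in DMSO, and 2-cell genes to 469 to 515 FPKM in crotonate, 391 to 553 FPKM in acetate and 270.28 to 426 FPKM in DMSO, and their part in these values was not tested. All 6 partner lists had 0 calls in the 3 treatment comparisons.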

How the data were processed

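The 18 Smart-seq2 libraries had paired 150 nt reads, per the labels. Trimming used cutadapt 1.16 and alignment STAR against mm10, per the submitters' processing notes, and which program and annotation turned alignments into values is not given in the sources used. The authors deposited FPKM, in 1 file per library that lists 55335 genes, so depth and gene length were already divided out. They hold no counts, so the depth is unknown and no counting interval is given, and they keep no strand. A check of low values at the best of many trial depths gave whole reads for 41.2 to 56.1% of them within 0.15 of a read. By chance 30% is expected at 1 fixed depth and more at the best of many, so reads were not recovered. Titles set the groups and replicate numbers. The file headers swap the numbers of siEchs1 L2C replicates 2 and 3, and there too the titles were followed.

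Symbols listed more than once and symbols turned into dates (237 entries in all, none a member) were left out. FPKM were tested as log2(FPKM + 1), which understates changes of low genes, for genes that reached 1 FPKM in 3 or more of 12 siRNA libraries (17652 genes) or in 2 or more of 6 treatment libraries (13789 genes). Tests were run in limma 3.58.1 (R 4.3.3) with a mean-variance trend and robust moderation, in 1 fit of all libraries per experiment, group means and no covariate. Adjusted p-values are Benjamini-Hochberg over all genes tested, two-sided, with a call at adjusted p under 0.05, and errors after ± beside log2 fold changes are standard errors. The script was tested on simulated data. Coordinates and overlapping exons came from GENCODE M21 (GRCm38), whose gene IDs matched those of all but 1 member including the version. Promoter sequences are RefSeq's.

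The members and all lists were chosen with earlier results of these data known. Genes named with values were 18 members chosen by role, up to 4 called members per direction and comparison with the smallest adjusted p, no overlap between groups and a mean of at least 1 FPKM, up to 2 called genes per direction and partner list, and Echs1. Other members are given by means, ranges and counts. In the partner lists 1 gene that this rule names is counted in its list and not reported here by name. The alternatives were a pseudocount of 0.1, no filter on low values, quantile normalization, rescaling without mitochondrial and 2 ribosomal RNA genes, the replicate number as a block, the compared libraries alone, and leaving out each library in turn.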

Additional observations from a re-analysis of the deposited data

Results flagged for a closer look

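The effect of siEchs1 differed between L2C and E2C for 11 members, by a test of the difference itself in the fit of all 12 siRNA libraries. That was 22.9% of the 48 members tested, where 17.2% of all 17652 genes differed. A lower value at L2C was called for 20.8% of members and 11.6% of all genes, and a higher value for 2.08% and 5.65%. Values below are the log2 effect at L2C minus that at E2C, with limma's adjusted p over all genes.

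The difference was lower than zero for writers of 4 residues. It was -3.02 ± 0.42 for Suv39h1 (adjusted p = 0.0021), from effects of -2.69 at L2C and 0.33 at E2C, -2.28 ± 0.59 for Kmt2d (adjusted p = 0.0218), -1.93 ± 0.46 for Setd2 (adjusted p = 0.0164), -1.51 ± 0.46 for Nsd3 (adjusted p = 0.0403) and -2.14 ± 0.59 for Kmt5a (adjusted p = 0.0275). Among erasers it was -2.25 ± 0.54 for Kdm3a (adjusted p = 0.0169), -1.94 ± 0.49 for Kdm3b (adjusted p = 0.0202), -2.37 ± 0.66 for Kdm5b (adjusted p = 0.0283) and -1.81 ± 0.49 for Kdm2b (adjusted p = 0.0252). Kdm2b had effects of -0.53 at L2C and 1.28 at E2C. The pseudogene Kdm4dl had -3.54 ± 0.64 (adjusted p = 0.00614). For Setd4 the difference was positive, 3.11 ± 0.91 (adjusted p = 0.0351), from effects of 4.20 at L2C and 1.09 at E2C.

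Those of Suv39h1, Kdm3a and Kdm4dl stayed past the threshold in every setting. The others did not: Setd2 (adjusted p = 0.0517 without siEchs1 L2C replicate 3), Kdm3b (adjusted p = 0.0535 to 0.0598 without siCon E2C replicate 2 or 3 or siEchs1 L2C replicate 3), Kmt2d (adjusted p = 0.0513 to 0.0564 without siCon E2C replicate 2 or 3 or siEchs1 L2C replicate 3 and 0.0521 with no filter on low values), Kdm2b (adjusted p = 0.0507 to 0.0696 without any siCon E2C library or siEchs1 L2C replicate 1 or 3, 0.054 with no filter on low values and 0.0523 with quantile normalization) and Kmt5a (adjusted p = 0.0528 to 0.0751 without any siCon E2C library, siCon L2C replicate 3 or siEchs1 L2C replicate 2 or 3 and 0.0652 with no filter on low values) each lost it in some. So did Kdm5b (adjusted p = 0.0502 to 0.079 without any siCon E2C library, siCon L2C replicate 3, siEchs1 E2C replicate 2 or siEchs1 L2C replicate 1 or 3, 0.061 with a pseudocount of 0.1 and 0.0682 with no filter on low values), Nsd3 (adjusted p = 0.0527 to 0.0996 without siCon E2C replicate 2 or 3, any siCon L2C library, siEchs1 E2C replicate 1 or 2 or any siEchs1 L2C library, 0.0575 with a pseudocount of 0.1, 0.0758 with no filter on low values, 0.0815 with quantile normalization and 0.0572 with the replicate number as a block) and Setd4 (adjusted p = 0.0574 to 0.0838 without any siCon E2C library, any siCon L2C library or any siEchs1 L2C library, 0.0504 with a pseudocount of 0.1 and 0.0912 with no filter on low values). At E2C, Setd4 was at 155 FPKM in siEchs1 replicate 3 and 1705 and 976 FPKM in replicates 1 and 2, and without replicate 3 its difference was log2 fold change 2.09, adjusted p = 0.00345. In oocyte transcripts the same library had a sum of 5162 FPKM, against 15414 and 18576 FPKM in siEchs1 E2C replicates 1 and 2, and its part in these differences was not tested.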

How the results depend on the processing

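No called value changed sign in any setting. Of 60 calls of genes named by the rule 35 held in every setting and 25 ended in at least 1, over 1070 values of which 928 kept their call and 142 lost it. The cause of the lost calls was not tested. The number of members called at E2C for siEchs1 over siCon was 5, against 2 with the compared libraries alone. Over all genes, 1934 were higher and 1644 lower in the first fit and 532 and 821 in the second. For the difference of effects 11 members were called, against 5 with no filter on low values. Over all genes, 997 had a higher and 2042 a lower value, against 589 and 1280. For L2C over E2C in siEchs1, 9 members were called, against 4 with no filter and 2 with the compared libraries alone. Over all genes 2090 were higher and 482 lower, against 1462 and 242 with no filter and 516 and 50 with the compared libraries. Calls thus fell over all genes as well. For crotonate over DMSO 0 members were called, against 3 with the compared libraries alone. There 848 of all 13789 genes were called lower and 299 higher. Leaving out each library in turn gave 2 to 13 calls for siEchs1 over siCon at E2C, 18 to 29 at L2C, 3 to 16 for the difference of effects, 3 to 13 for L2C over E2C in siEchs1, 22 to 30 in siCon, 0 to 3 for crotonate over DMSO, 0 to 10 for acetate over DMSO and 0 to 7 for crotonate over acetate. The highest counts at E2C, at L2C and for the difference were without siEchs1 E2C replicate 3. Those for acetate over DMSO and for crotonate over acetate were without acetate replicate 2. That fit leaves 1 acetate library, so no acetate call is read from it. For fits that leave out a library, the share of all genes called is not given. These ranges are therefore not read as a result about the members. The fit with the replicate number as a block gave 4 calls at E2C, 24 at L2C, 10 for the difference of effects, 8 for L2C over E2C in siEchs1, 26 in siCon and 0 in the treatment comparisons. Deviations of same-numbered libraries correlated between -0.10 and 0.11 in the siRNA experiment and between -0.096 and 0.16 in the treatment experiment. In the siRNA experiment at most 2 of 6 libraries of a comparison correlated best with their own number. With 2 libraries a group, both numbers of a treatment comparison give the same correlation. Such values cannot tell whether same-numbered libraries shared a mating or a day. Low members (under about 1 FPKM) are limited by the pseudocount, and 2 libraries a group limit the treatment results.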

Other observations

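Summed over the genes of a residue, as a description with no test, H4K20 writers had 49.3 ± 19.6 FPKM in siEchs1 L2C, 138 ± 15.8 in siCon L2C, 30.7 ± 18.8 in siEchs1 E2C and 25.8 ± 3.04 in siCon E2C (SD, n = 3 each). H3K36 writers had 47.1 ± 7.27 FPKM in siEchs1 L2C, 158 ± 4.16 in siCon L2C, 102 ± 26.9 in siEchs1 E2C and 104 ± 9.64 in siCon E2C. H3K9 erasers had 62.1 ± 10.5 FPKM in siEchs1 L2C, 189 ± 1.56 in siCon L2C, 94.9 ± 64.1 in siEchs1 E2C and 84.9 ± 15.2 in siCon E2C. In these 3 classes siCon L2C had the highest mean sum of the 4 siRNA groups. The same held for H3K4 writers, H3K9 writers, H3K36 erasers and the H3K79 writer. For H3K4 erasers, H3K27 writers and H3K27 erasers the highest mean sum was in siEchs1 E2C. In siEchs1 E2C, replicate 3 raised the means of H4K20 writers, H3K36 writers and H3K9 erasers. It had 52.4 FPKM for H4K20 writers, against 20.7 and 18.9 in replicates 1 and 2. For H3K36 writers it had 133, against 87.4 and 85.5, and for H3K9 erasers 169, against 59.3 and 56.5. Replicates 1 and 2 were below every siCon E2C library in these classes. The sum of H3K9 writers was 143 ± 7.52 FPKM in siEchs1 L2C and 175 ± 9.98 FPKM in siCon L2C, and that of H3K27 writers 449 ± 41.5 FPKM in siEchs1 L2C and 431 ± 39.1 FPKM in siCon L2C. The highest genes set these sums. For H3K9 they were Suv39h2 and Setdb2 in siEchs1 L2C and Setdb2 and Ehmt1 in siCon L2C, and for H3K27 Ezh2 and Eed in both.

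Some members stood at other levels in the E2C controls of the 2 experiments, which were processed as separate sets and are not compared by a test. Kdm5a had 454 and 572 FPKM in DMSO and 60.7, 59.3 and 96.2 FPKM in siCon E2C. Kdm2a had 50.8 and 68.9 FPKM in DMSO and 5.73, 4.7 and 3.03 FPKM in siCon E2C, and Setdb1 95 and 108 FPKM in DMSO and 14.1, 10.8 and 12.4 FPKM in siCon E2C. Setd2 had 7.64 and 8.42 FPKM in DMSO and 55.8, 51.9 and 48.3 FPKM in siCon E2C, and Setd4 98.7 and 110.08 FPKM in DMSO and 241, 367 and 301 FPKM in siCon E2C.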
